A study of Xenopus tropicalis with 84 samples.

Results

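The polyA+ transcriptome of *nup107* morpholino (MO) embryos of the frog *Xenopus tropicalis* was followed from 8 to 9 hours post fertilization (hpf) to 11 to 12 hpf. The 3 MO libraries of 8, 8.5 and 9 hpf (early window) were set against the 3 MO libraries of 11, 11.5 and 12 hpf (late window). These are 6 of the 42 libraries for which values were used, in a series of 84 labelled samples. They were chosen by condition, library type and time alone, and all 34192 genes of the table were examined. A table under the name of the polyA+ libraries and another under that of the rRNA-depleted libraries held the same values, which were used once, and that they are the polyA+ values rests on the first table's name and its samples' descriptions. All embryos came from in vitro fertilization and were raised as whole embryos at the same temperature. MO embryos had received 10 ng of a start-site MO against *nup107*, and uninjected controls (UIC, labelled UC) received nothing, so that the injection itself is part of any difference from UIC. Each library held 10 embryos, and there was 1 library per condition and time point. Neighbouring time points therefore served as replicates. The spread within a window includes real change over time, and the p-values measure only the spread between these libraries, since nothing states that they came from separate fertilizations.

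Nup107 is a scaffold subunit of the Y complex of the nuclear pore, the channel through which RNA leaves the nucleus. The early frog embryo lives on mRNA laid down in the egg. This maternal mRNA is cleared after the zygotic genome switches on, and by gastrulation the germ layers and the body axis are set up by zygotic factors. The study asked how depletion of Nup107 touches this maternal-to-zygotic transition. The comparison within MO embryos shows which transcripts were lost and which were gained while depleted embryos passed through gastrula stages. PolyA+ libraries report the amount of an mRNA and the length of its tail together, and these cannot be told apart. In whole embryos, fewer cells of a type and less RNA per cell cannot be told apart either.

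Values are TPM, the abundance of a transcript relative to all transcripts of the library, and the change of a gene is the late mean minus the early mean of log2(TPM + 1). Adding 1 makes this change too small for genes close to 0. The ERCC spike-ins took 4.62% to 5.45% of the TPM in the 6 libraries, and 14723 to 15194 genes were over 0.4 TPM. TPM hold no read counts, so the depth of the libraries is unknown. Markers of the axis and germ layers were present in both windows, among them the organizer genes *gsc* and *chrd*, the ventral gene *ventx1.2*, the mesodermal gene *t* (brachyury), the endodermal genes *sox17a* and *mixer* and the ectodermal genes *tfap2a* and *sox2*. Of 19 entries on a list of markers of differentiated tissues, 17 had means under 3 TPM in both windows, and of the 8 tested 1 rose and 2 fell. The others were *mbp*, a myelin gene at 24.1 TPM early and 8.13 TPM late, and *tfap4*, a bHLH factor at 27.1 TPM and 27.5 TPM.

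The targeted mRNA itself was at 181, 169 and 136 TPM in the MO libraries of 8, 8.5 and 9 hpf. It was at 81.3, 74.6 and 62.4 TPM at 11, 11.5 and 12 hpf, and every late value lay below every early one. *nup107* thus fell, with a log2 change of -1.14 ± 0.14 (SE, adjusted p = 0.000455). In UIC it was at 104, 81.3 and 65.4 TPM early and 33.2, 27.1 and 30.9 TPM late, a change of -1.41, and each MO library was above the UIC library of the same time. An MO against a start site blocks translation, so that the mRNA level does not measure the depletion of the protein.

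Depleted embryos lost more transcripts than they gained on the TPM scale. Of 15011 genes tested, 7033 fell (46.9%) and 2910 rose (19.4%) between the windows at an adjusted p under 0.05 (limma, Benjamini-Hochberg). At least 2-fold falls were called for 3387 genes (22.6%) and at least 2-fold rises for 1324 (8.82%). The median change over all genes was -0.34. TPM are relative to the whole pool, and the split between falls and rises depends on the scaling. Scaling to the ERCC spike-ins gave 6286 falls and 3309 rises with a median of -0.24. Scaling by median ratios, which takes the typical gene as the reference over all time points, gave 4179 falls and 5284 rises with a median of 0.07. Of the 7033 genes that fell, 4179 also fell under median ratios, 139 rose and the rest were not called. Of the 3387 genes with at least 2-fold falls, 3290 still fell under median ratios and 3370 under spike-in scaling, and all 1324 genes with at least 2-fold rises rose under both.

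**Figure D1:**
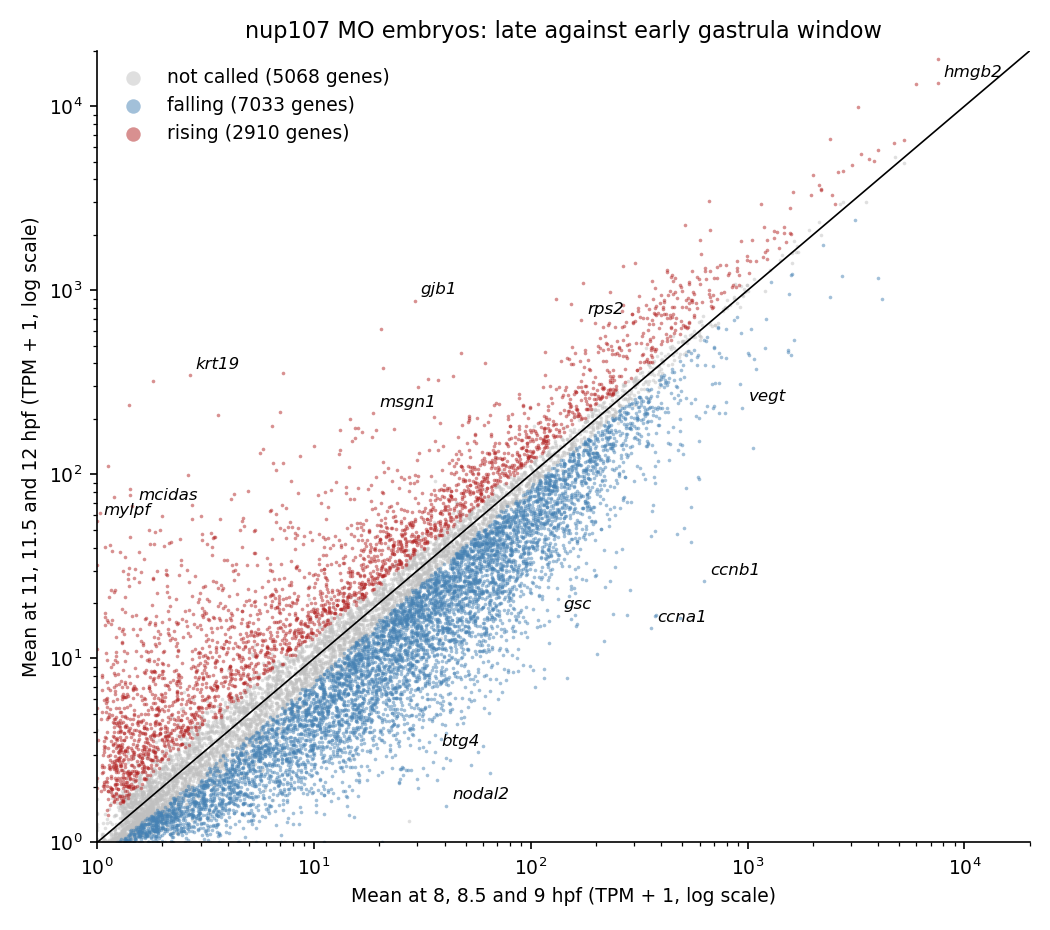
Mean TPM + 1 of each tested gene in MO embryos at 8, 8.5 and 9 hpf (x axis, log scale) against 11, 11.5 and 12 hpf (y axis, log scale), with 7033 falling genes in blue, 2910 rising genes in red and 5068 genes that were not called in grey. The line marks equal levels, and falling genes such as *ccnb1* lie below it while *krt19* and *gjb1* lie above it.

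The falling genes were mostly maternal, and among genes with at least 2-fold rises those without maternal mRNA were the larger class. A gene was counted as maternal when its mean in the MO libraries of 2, 2.5 and 3 hpf, which the comparison did not use, was at least 1 TPM, and as not maternal when it was under 0.4 TPM. Of the 3387 genes with at least 2-fold falls, 3226 (95.2%) were maternal and 146 (4.31%) were not. Of the 1324 genes with at least 2-fold rises, 503 (38.0%) were maternal and 668 (50.5%) were not. Among all 2910 rising genes the maternal class was the larger, with 1739 (59.8%) against 925 (31.8%) that were not maternal. Among all genes tested, 80.4% were maternal and 13.2% were not. Of the 146 falling genes that were not maternal, 139 had their highest MO value of the whole time course at or before 9 hpf. They were chosen as lower late than early and low at 2 to 3 hpf, so the selection itself favoured such a peak. Among all 1974 tested genes that were not maternal, 560 peaked at or before 9 hpf.

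The genes with at least 2-fold falls held 36.1% of the TPM of all genes in the MO library of 2 hpf and 35.0% at 5 hpf. Their share was 24.9%, 22.5% and 18.2% at 8, 8.5 and 9 hpf, 14.2%, 12.2% and 9.61% at 9.5, 10 and 10.5 hpf, and 8.05%, 7.05% and 5.73% at 11, 11.5 and 12 hpf. The genes with at least 2-fold rises took 2.35% in the library of 2 hpf, 5.61% in that of 8 hpf and 21.6% in that of 12 hpf. The 2 sets held about equal shares at 10 hpf, a time between the windows. The UIC libraries of 8 and 12 hpf had 25.3% and 6.02% in the falling set and 5.35% and 21.2% in the rising set. For the 3226 maternal genes with at least 2-fold falls, the median level left relative to 2 to 3 hpf was 67.1% at 8 to 9 hpf in MO, 35.3% at 9.5 to 10.5 hpf and 19.7% at 11 to 12 hpf, with quartiles of 9.82% and 32.9% in the last window. The same genes in UIC had medians of 68.9%, 36.8% and 21.6% of the UIC level of 2 to 3 hpf. Both sets were chosen by their change in MO, which biases the MO values toward a larger change than in UIC. Genes that did not fall in MO are left out, so these values cannot show whether clearance was delayed in MO.

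**Figure D2:**
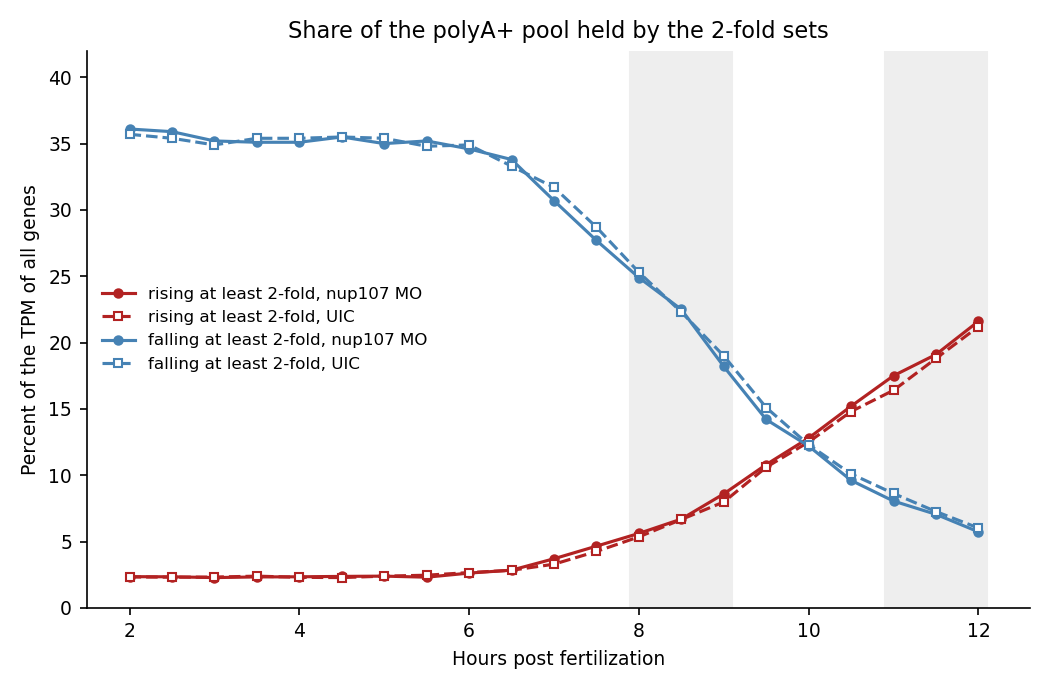
Percent of the TPM of all genes (y axis) held by genes with at least 2-fold falls (blue) and at least 2-fold rises (red) in each library from 2 to 12 hpf (x axis), with MO as filled circles and UIC as open squares. Grey bands mark the early and late windows from which the sets were chosen in MO, and the falling set went from 36.1% at 2 hpf to 5.73% at 12 hpf in MO.

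The libraries between the windows, which the comparison did not use either, lay on the way from early to late. The mean of 9.5, 10 and 10.5 hpf was between the early and late means for 6628 of 7033 falling genes (94.2%) and for 2462 of 2910 rising genes (84.6%). It was between them for 35.4% of genes that were not called. When the early mean of each gene was set to 0% and its late mean to 100%, the median falling gene of the 2-fold set stood at 38.9%, 53.5% and 72.3% at 9.5, 10 and 10.5 hpf, and the median rising gene at 42.7%, 54.8% and 79.8%. UIC libraries placed on the same MO scale stood at 36.6%, 54.4% and 73.5% for falling genes and at 33.4%, 52.9% and 69.3% for rising genes. MO stood ahead of UIC at each of the 3 times for rising genes and only at 9.5 hpf for falling genes. The sets and the scale were taken from MO, and this difference was not tested. The MO library of 9 hpf stood at 16.1% and 16.4%, further along than those of 8 and 8.5 hpf.

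Genes of surface epithelium, muscle, multiciliated cells and complement were among those with the largest rises. The rule for these took the 12 largest rises among called genes with a symbol, no overlap between windows and at least 5 TPM in the higher window. *krt19*, an epithelial keratin, was at 0.36, 0.24 and 4.40 TPM in the early window and 237, 319.98 and 478 TPM in the late one. Its log2 change was 7.31 ± 0.56 (SE, adjusted p = 0.000296), the largest of the genes named. *gjb1* and *gjb2* encode connexins of gap junctions, and *gjb1* went from 3.79, 11.5 and 69.1 TPM to 688, 826 and 1115 TPM. *gjb1* already differed widely between the early libraries, and its change was 5.74 ± 0.85 (SE, adjusted p = 0.000888).

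*cfb* and *c3* encode proteins of the complement pathway. *cfb* was at 0.35, 0.38 and 0.51 TPM early and 44.3, 75.1 and 128 TPM late, with a change of 5.75, and *c3* changed by 4.95. The muscle genes *mylpf*, a myosin light chain, and *actc1*, cardiac alpha-actin and an early marker of frog somites, rose together. *mylpf* was listed at 0 in the 3 early libraries and at 26.5, 46.4 and 91.8 TPM in the late ones, and *actc1* went from 0.69, 1.29 and 2.88 TPM to 61.4, 72.2 and 161 TPM with a change of 5.2 ± 0.42 (SE, adjusted p = 0.000296). *mcidas*, a switch for multiciliated cells, went from 0.22, 0.36 and 0.76 TPM to 56.4, 60.3 and 82.1 TPM. Its 3 values between the windows were 7.17, 22.2 and 43.0 TPM, so that most of the rise came between 9 and 11 hpf. The remaining genes were *agr2*, a secretory protein of the cement gland and mucous cells (5.23), *hes8* (5.05), *emp2*, an epithelial membrane protein (5.01), and the growth factor *igf2* (4.99), with log2 changes in parentheses. None of these 12 genes reached 2 TPM at 2 to 3 hpf in MO. A gene was tested only when over 0.4 TPM at 6 time points in a row in UIC or MO. Genes near 0 early, such as *cfb*, *c3* and *mylpf*, met this through their later values, so that the filter favours a rise.

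**Figure D3:**
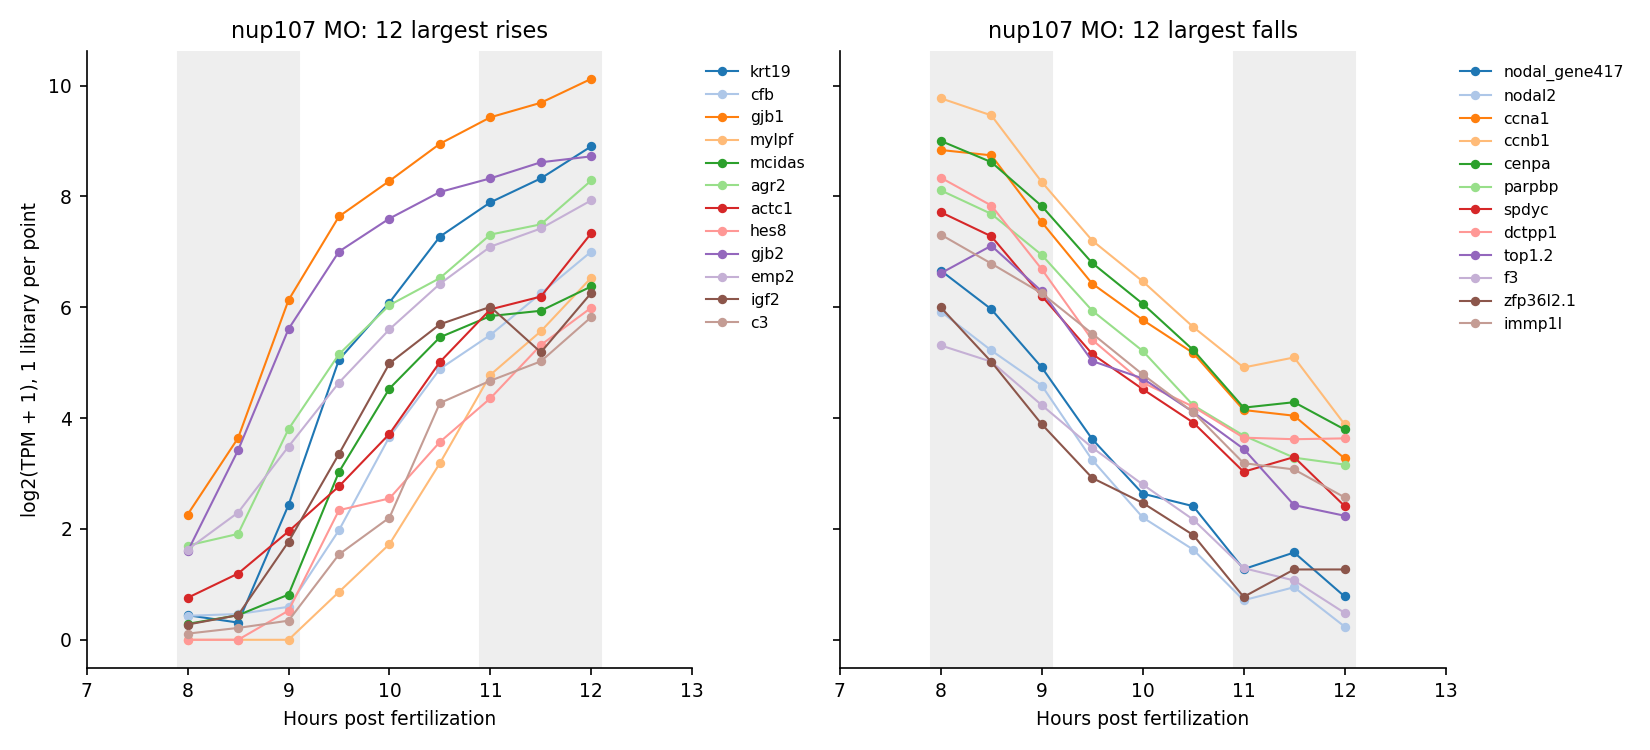
log2(TPM + 1) of the 12 genes with the largest rises (left) and the 12 with the largest falls (right) in the 9 MO libraries from 8 to 12 hpf, with 1 library per point and grey bands for the early and late windows. Values between the bands were not used to choose the genes and lie between the levels of the windows for all genes shown except *igf2*, whose 10.5 hpf value was above that of 11.5 hpf.

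Maternal cell cycle genes and zygotic Nodal ligands were among the 12 largest falls, taken by the same rule. *ccnb1* and *ccna1* encode mitotic cyclins of the cleavage divisions. *ccnb1* was at 873, 705 and 306 TPM early and 29.1, 33.2 and 13.8 TPM late, and *ccna1*, the egg-type cyclin A, was at 457, 427 and 185 TPM and 16.7, 15.5 and 8.66 TPM. Both had started from a maternal level of 3637 TPM and 3534 TPM at 2 to 3 hpf, and their changes were -4.53 ± 0.44 (SE, adjusted p = 0.000302) and -4.55 ± 0.38 (SE, adjusted p = 0.000296). *cenpa*, the histone H3 variant of centromeres, went from 512, 392.4 and 226 TPM to 17.2, 18.5 and 12.9 TPM. *spdyc*, a Speedy/RINGO activator of cyclin-dependent kinases, changed by -4.15, *parpbp*, a regulator of recombination, by -4.20 and *dctpp1*, a nucleotide pyrophosphatase, by -3.99.

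A pair of Nodal family entries was on the same list. *nodal2* was at 59.7, 36.3 and 23.0 TPM early and 0.64, 0.93 and 0.18 TPM late, and a second locus with the symbol *nodal* was at 100.3, 61.5 and 29.2 TPM and 1.42, 1.98 and 0.72 TPM. The frog carries many close copies of Nodal genes, and the split of reads between them is uncertain. *zfp36l2.1*, an RNA-binding protein that promotes deadenylation, was at 1160 TPM at 2 to 3 hpf and at 62.9, 31.4 and 13.8 TPM in the early window. It was at 0.71, 1.41 and 1.41 TPM in the late window, a change of -3.86 ± 0.48 (SE, adjusted p = 0.000476). *f3*, tissue factor, changed by -3.90 and *immp1l*, a mitochondrial inner membrane peptidase, by -3.84. *top1.2*, a topoisomerase I gene, went from 97.0, 137 and 77.2 TPM to 9.89, 4.39 and 3.72 TPM and was highest at 8.5 hpf.

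Gene lists are read here against all genes tested, of which 46.9% fell and 19.4% rose with a median of -0.34. No difference between a list and the other genes, or between lists, was tested. A gene that is low early passes the filter on low values only through its later ones, so that the filter favours a rise. Counts over tested members are therefore descriptions where entries were left out, as for the Hox, muscle, epidermal, neural, retinoic acid and ciliogenesis lists. The same holds for single genes near 0 early in other lists, such as *fgf10* and *hes8*.

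Genes of the egg fell. All 18 tested entries of the list of oocyte-type genes and zona glycoproteins fell, 9 of them at least 2-fold, with a median change of -1.11 against -0.34 for all genes. *h1foo*, the oocyte linker histone, went from 772, 547 and 325 TPM to 78.7, 75.7 and 42.4 TPM. *gdf9* and *bmp15*, growth factors of the ovary, changed by -3.35 and -2.81, and *wee2*, an oocyte kinase that holds back Cdk1, by -2.93. Of these 18 genes, 11 still fell and none rose under median ratios.

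Regulators of maternal mRNA were mixed. Of 47 tested genes, 27 fell, 8 rose and 12 were not called, with a median of -0.51, and under median ratios 19 fell and 16 rose. *btg4*, a recruiter of the Ccr4-Not deadenylase to maternal mRNA in mouse, was at 2114 TPM at 2 to 3 hpf, 49.3, 39.3 and 16.8 TPM in the early window and 2.69, 2.12 and 1.46 TPM in the late one (-3.44 ± 0.38 SE, adjusted p = 0.000348). *zar1l* (-2.72), the translational repressors *patl2* (-2.46) and *cpeb1* (-2.17) and the kinase *mos* (-2.38) of oocyte maturation also fell. The deadenylase genes *pan2* (-2.19) and *parn* (-1.48) fell, while *cnot7*, a catalytic subunit of the Ccr4-Not complex, rose by 1.39. The poly(A)-binding protein of the egg, *pabpc1l*, fell by 1.68 and its somatic relative *pabpc1* rose by 1.00. *drosha* (-1.82) and *dicer1* (-0.56), which process microRNAs, fell, and *ago2*, which uses them, rose by 0.71. The median change of the whole list was -0.51 in MO and -0.54 in UIC. These are changes over time in MO and not differences from UIC.

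Germ plasm genes encode RNA-binding and granule proteins of the future germ cells. Of 20 tested, 12 fell and 1 rose, *ddx4* (0.29), with a median of -0.74. *velo1*, a Balbiani body protein, went from 216, 166 and 95.8 TPM to 16.7, 21.8 and 10.2 TPM (-3.20 ± 0.35 SE, adjusted p = 0.000336), and *dnd1* from 204, 172 and 148 TPM to 56.9, 45.9 and 33.7 TPM. *nanos1* (-1.88), *grip2* (-1.86) and *sybu* (-1.84) fell to a similar extent.

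Cyclins and the kinases that act with them drive the rapid cleavage divisions, which end before gastrulation. Against 46.9% falling and 19.4% rising over all genes, 11 of 19 cyclin and Cdk genes fell and 3 rose (median -0.56), and of 24 mitotic and checkpoint kinases and phosphatases 16 fell and 2 rose (median -0.57). *ccnb1.2*, at 4615, 4300.2 and 3540.1 TPM early and 1003, 943 and 727 TPM late, was the most abundant of the cyclins that fell. *cdknx*, the frog Cdk inhibitor p27Xic1, moved the other way, from 28.2, 32.8 and 42.8 TPM to 191, 205.2 and 211 TPM (2.53 ± 0.15 SE, adjusted p = 0.000277), and *ccnd1*, a G1 cyclin, rose by 0.80. *chek1*, a checkpoint kinase, and *cdc25a*, a phosphatase that activates Cdks, changed by -1.46 and -1.27. Under median ratios the cyclin list had 8 falls and 6 rises and the kinase list 8 falls and 7 rises.

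Of 42 replication genes 32 fell and 5 rose, with a median of -0.94, against 46.9% falling over all genes, and 24 fell and 10 rose under median ratios. *orc6*, of the origin recognition complex, went from 331, 269.6 and 183 TPM to 44.6, 41.1 and 29.4 TPM. *cdc45* (-2.56) and *cdc6* (-1.94), which load and start the helicase, fell with it. The MCM helicase genes moved both ways, as 1 *mcm3* locus fell by 1.77 and the other rose by 1.57, and *mcm6* fell by 0.88 while *mcm6.2* rose by 1.61. Reads could be split between such copies, so single loci are uncertain.

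The list of Nodal and Vg1-type ligands, which induce mesoderm and endoderm, also holds antagonists and coreceptors of Nodal. It fell nearly throughout, with 12 of 13 members down and a median of -2.90. The maternal Vg1 gene *gdf1* fell by 2.90 and *gdf3* by 1.85. *nodal1* went from 33.0, 21.2 and 17.5 TPM to 1.21, 1.26 and 1.2 TPM and *nodal6* from 36.5, 20.4 and 14.0 TPM to 1.05, 1.74 and 0.52 TPM. *dand5*, a maternal Nodal antagonist, changed by -3.68, and *lefty*, a zygotic antagonist, by -1.88. The only member that rose was the coreceptor gene *tdgf1.2* (1.07), while its relative *tdgf1.3* went from 406, 364 and 302 TPM to 69.2, 46.4 and 20.0 TPM.

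**Figure D4:**
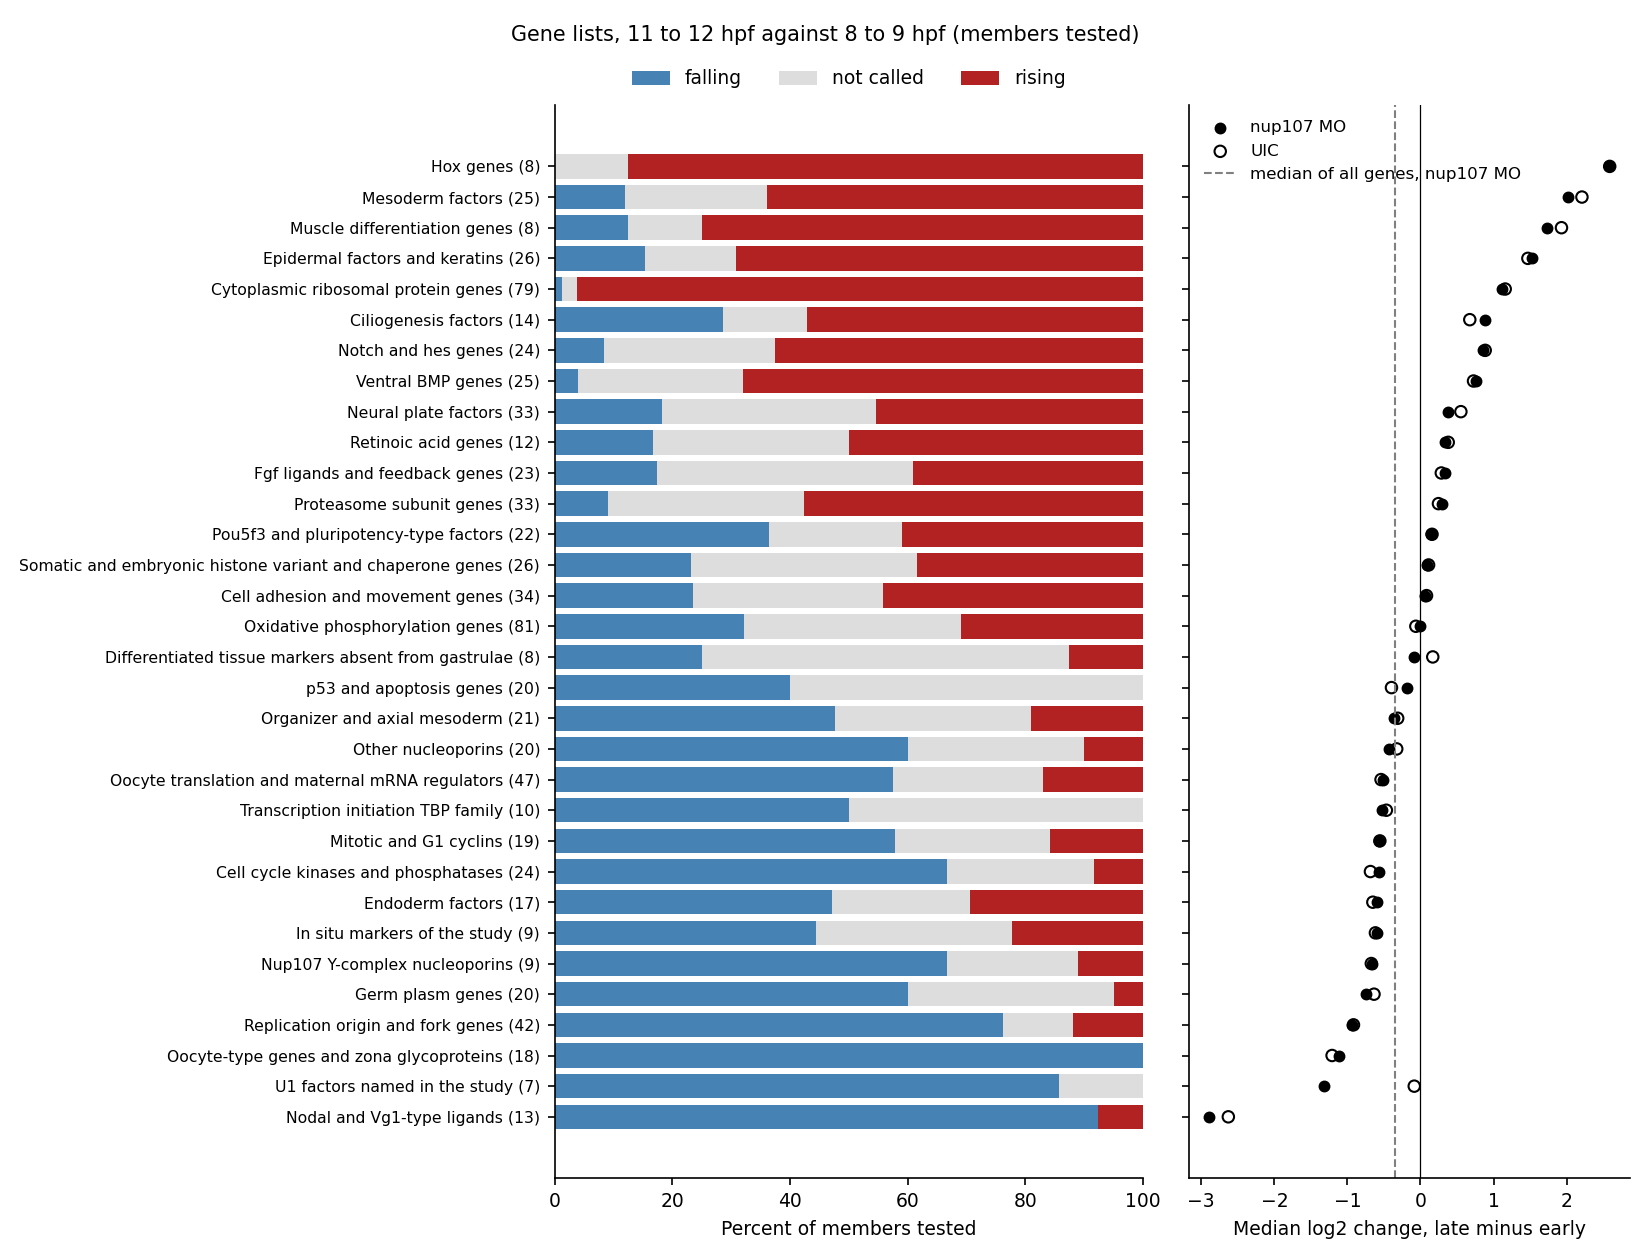
Left, percent of the tested members of each gene list that fell (blue), rose (red) or were not called (grey) between 8 to 9 hpf and 11 to 12 hpf in MO embryos, with the number tested in parentheses. Right, median log2 change of the list in MO (filled) and UIC (open), with a dashed line at -0.34 for all tested genes in MO, from -2.90 for Nodal and Vg1-type ligands to 2.58 for Hox genes.

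Endoderm factors moved both ways. *mix1*, a homeobox gene of the mesendoderm, was at 202, 157 and 124 TPM early and 20.7, 13.2 and 8.00 TPM late (-3.50 ± 0.32 SE, adjusted p = 0.000296), and *bix1.1* changed by -2.91. *mixer* went from 168, 176 and 236 TPM through 287, 176 and 172 TPM between the windows to 81.1, 52.4 and 23.8 TPM. The T-box genes *vegt* (-2.1) and *eomes* (-2.12) fell. The forkhead genes *foxa1* (2.52) and *foxa2* (2.45), which maintain endoderm and axial tissue, rose, as did *sox17a* (0.53). In all, 8 of 17 endoderm factors fell, a share close to the 46.9% of all genes, and 5 rose (median -0.60), and under median ratios 5 fell and 6 rose. Of 9 patterning markers that the study also scored by in situ hybridization, 4 fell, 2 rose and 3 were not called, shares close to those of all genes. Their median change was -0.60 in MO and -0.62 in UIC. Among these markers *trim33* fell (-1.10 in MO and -0.96 in UIC). The study scored depleted embryos against controls, while these are changes over time within a condition.

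Organizer genes moved both ways. *gsc*, a homeobox repressor of the Spemann organizer, was at 149, 129 and 117 TPM early and 15.2, 15.8 and 17.2 TPM late (-2.95 ± 0.12 SE, adjusted p = 0.000179), with a small spread in both windows. *sia1* and *sia2*, the earliest targets of maternal Wnt signalling, fell by 2.42 and 2.08, and *sia2* was listed at 0 in the 3 late libraries. *hhex*, of the anterior endoderm, went from 43.2, 41.7 and 46.8 TPM to 10.0, 6.94 and 4.22 TPM. *shh*, the signal of notochord and floor plate, rose from 0.44, 0.35 and 1.67 TPM to 7.92, 7.95 and 10.1 TPM, and the Activin antagonist *fst* rose by 1.95. *chrd*, the secreted BMP antagonist, was at 96.1, 108 and 119 TPM and 112, 86.2 and 81.0 TPM and was not called (limma, adjusted p = 0.22), and its change of -0.22 turned to 0.32 under median ratios. Of 21 tested organizer genes, 10 fell and 4 rose (median -0.36), shares close to the 46.9% and 19.4% of all genes, and under median ratios 5 fell and 6 rose (median 0.17).

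Ventral BMP genes moved up. Of 25 tested, 17 rose and 1 fell, with a median of 0.76. *msx1*, a homeobox target of BMP signalling, went from 6.79, 11.4 and 25.2 TPM to 159, 137 and 175 TPM (3.52 ± 0.39 SE, adjusted p = 0.000352), and *msx2* and *evx1* changed by 2.91 and 2.05. The 2 *bmp7* genes crossed. *bmp7.1* rose from 1.83, 2.95 and 6.22 TPM to 27.1, 35.1 and 55.0 TPM and *bmp7.2* fell from 713, 699.9 and 660.1 TPM to 289, 250.0 and 148 TPM. *bmp4* was at means of 109.7 TPM and 125 TPM and was not called. *ventx1.2* was at 113, 126 and 143 TPM between the windows and changed by 0.80.

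Most mesoderm factors rose. Of 25 tested, 16 rose, all at least 2-fold, and 3 fell, with a median of 2.02. *myod1*, the master gene of skeletal muscle, went from 0.24, 0 and 0.93 TPM to 22.4, 23.5 and 37.7 TPM (4.39 ± 0.30 SE, adjusted p = 0.000293). *msgn1*, of the presomitic mesoderm, was at 4.82, 11.6 and 36.8 TPM and 212, 206.1 and 221.4 TPM. *ripply2.2* (4.88), *meox2* (4.43), *foxc2* (3.50) and *cdx1* (3.60) rose as well. *t*, the pan-mesodermal gene, was at 153, 194.8 and 249 TPM early and 238, 179 and 157 TPM late. It was at 276, 272 and 272 TPM at the 3 times between, above both windows, and its change of -0.05 was not called and turned positive under both other scalings. Of 13 muscle gene entries only 8 passed the filter, *mylpf* among them through its values after 9 hpf, and 6 rose and 1 fell (median 1.73). *myl1*, a myosin light chain, went from 2.58, 3.13 and 3.70 TPM to 48.5, 68.8 and 99.8 TPM.

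Epidermal genes rose in 18 of 26 tested cases and fell in 4, with a median of 1.53. Besides *krt19*, *gata3* (3.58), *dlx3* (3.51), *tp63* (2.64) and *grhl2* (2.82), all regulators of surface ectoderm, rose. *krt8* rose from 187, 235 and 371.96 TPM to 1206, 1104 and 1758 TPM. *foxi2*, a maternal activator of ectoderm, fell from 186, 144 and 102 TPM to 24.3, 18.8 and 11.8 TPM while *foxi4.1* rose from 0.08, 0.46 and 1.48 TPM to 16.1, 13.3 and 17.4 TPM. Of 14 ciliogenesis factors, 8 rose and 4 fell (median 0.88). *gmnc*, which acts before *mcidas*, went from 6.06, 8.45 and 11.5 TPM to 2.60, 1.08 and 0.2 TPM (-2.18 ± 0.40 SE, adjusted p = 0.0024) and was at 14.1, 15.0 and 9.71 TPM between the windows. *foxj1* (1.63), *foxn4* (2.72) and *myb* (2.50), which act in multiciliated or ciliated cells, rose.

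Neural plate factors were mixed, with 15 of 33 up, 6 down and a median of 0.38. Genes of regional identity that rose were *pax3* (3.78) of the neural plate border, *gbx2.2* (3.79) of the hindbrain side, and *six3* (2.86) and *rax* (2.86) of the anterior plate and eye field. *rax* went from 0.99, 1.73 and 2.1 TPM to 4.91, 14.7 and 68.0 TPM, so that the last library held most of the rise. The early pan-neural genes *sox3* (-0.82) and *sox11* (-0.73) fell and *sox2* rose by 0.76. *gmnn* (-1.80), which is also on the list of replication genes and was at 2664 TPM at 2 to 3 hpf, fell as well.

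Hox genes place cells along the head-to-tail axis, and most of those tested rose. Of 36 Hox entries only 8 passed the filter on low values, and 7 of these rose and none fell. *hoxd1* was the most abundant, at 21.6, 48.7 and 82.1 TPM early and 204.9, 185 and 217.2 TPM late. *hoxb1*, a target of retinoic acid in vertebrates, went from 0, 0.1 and 0.85 TPM to 26.2, 24.6 and 35.6 TPM (4.54 ± 0.27 SE, adjusted p = 0.000281). Among retinoic acid genes 6 of 12 rose and 2 fell (median 0.34). The carrier gene *crabp2* (3.84), the receptor gene *rara* (2.69), the reductase gene *dhrs3* (2.11) and the catabolic gene *cyp26c1* (1.93) rose, and the receptor gene *rxrg* fell by 1.49.

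Among Fgf genes 9 of 23 rose and 4 fell (median 0.33), with *fgfrl1* (2.96), *fgf10* (2.42) and *fgf3* (2.16) the largest rises. *fgf10* was listed at 0 in the early libraries. Notch genes rose in 15 of 24 cases and fell in 2, with a median of 0.86. The largest rises were hes genes, a family of repressors that includes targets of Notch, while *hes7.2* fell by 0.96. *hes8* was at 0, 0 and 0.44 TPM early and 19.5, 38.9 and 62.7 TPM late, *hes3.3* changed by 4.05 and *hes5.1* by 2.80. For cell adhesion and movement, 15 of 34 genes rose and 8 fell (median 0.06). *cdh1*, E-cadherin, went from 16.9, 19.1 and 22.8 TPM to 65.6, 68.4 and 105 TPM, *cdh2*, N-cadherin, changed by 2.50 and *cdh11* by 3.22. *twist1*, of the cranial mesoderm and neural crest, changed by 3.70. *wnt5b* rose by 1.47 while *wnt5a* fell by 1.02, and the chemokine gene *cxcl12* rose by 1.40 while its receptor gene *cxcr4* fell by 1.54.

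Ribosomal protein genes rose nearly as one block. Of 79 tested, 76 rose, 48 of them at least 2-fold, 1 fell (*rpl22l1*, -0.41) and 2 were not called, with a median of 1.11, and under median ratios 77 rose and 0 fell. Their summed level was 25860 to 32930 TPM in the early libraries and 53640 to 66950 TPM in the late ones. *rps2* had the largest rise, from 121, 154 and 236 TPM to 611, 611 and 838 TPM (2.05 ± 0.25 SE, adjusted p = 0.000421), and *rpl37* went from 517, 606 and 893 TPM to 1873, 2105 and 2402 TPM. Proteasome genes rose in 19 of 33 cases and fell in 3, with smaller changes (median 0.30). Genes of oxidative phosphorylation were split, with 25 up, 26 down and 30 not called of 81 (median -0.0028), and under median ratios 59 rose and 8 fell. The largest falls were *ndufaf7* (-2.35) and *ndufaf1* (-1.38), assembly factors of complex I, and the largest rises *ndufc2* (2.04) and *ndufb4* (1.49), subunits of it.

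Chromatin and transcription genes changed in part. *tbp*, the TATA-binding protein gene, went from 195.99, 167 and 50.5 TPM to 29.3, 32.6 and 30.5 TPM, with most of its drop between 8.5 and 9 hpf. *tbpl1* (-1.81) and the oocyte form *tbpl2* (-1.34) fell, and 5 of 10 members of that list fell, near the share over all genes, while none rose (median -0.52), although under median ratios 4 fell and 3 rose. Of 26 histone variant and chaperone genes, 10 rose and 6 fell (median 0.09). *h1f0*, a linker histone of quiescent cells, rose from 4.73, 5.34 and 4.68 TPM to 15.8, 19.6 and 26.3 TPM. The list also holds high mobility group genes, and 1 of these, *hmgb2*, was the most abundant, at 6422, 7543 and 8576 TPM and 12392, 14301 and 13501 TPM. The chaperone genes *nasp* (-1.73), *daxx* (-1.04) and *chaf1a* (-0.94) fell. Among pluripotency-type factors *pou5f3.3* (-2.83) and *pou5f3.2* (-1.32) fell and *pou5f3.1* rose by 0.84, with 9 of 22 up and 8 down (median 0.14), and 11 up and 2 down under median ratios. Of 20 tested p53 and apoptosis genes 8 fell, fewer than the 46.9% of all genes, and none rose (median -0.19), but under median ratios 3 fell and 9 rose (median 0.20).

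Nuclear pore mRNAs are read against the 46.9% of all genes that fell and the 19.4% that rose. Of 9 Y-complex genes tested, *ahctf1* (-1.45), *nup107* (-1.14), *nup37* (-1.03), *nup133* (-0.96), *seh1l* (-0.66) and *nup43* (-0.36) fell. The call for *nup43* was lost without any of the MO libraries of 8, 8.5, 11, 11.5 or 12 hpf (adjusted p from 0.055 to 0.10), and its change turned to 0.17 under median ratios. *sec13*, which also serves in COPII vesicle coats, rose by 0.36, and *nup85* (0.18) and *nup98* (-0.12) were not called, and *nup98* turned positive under both other scalings. Under median ratios 4 of these genes fell and 3 rose. Of 20 other nucleoporins 12 fell and 2 rose, and under median ratios 5 fell and 6 rose. *nup35* was the most reduced, from 882, 799 and 663 TPM to 263, 215 and 165 TPM (-1.88 ± 0.18 SE, adjusted p = 0.000297). The median change was -0.66 for Y-complex genes and -0.44 for the other nucleoporins, against -0.34 for all genes.

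Uninjected embryos were examined over the same windows to see whether depleted embryos moved differently. The UIC libraries share no sample with the MO libraries. In UIC 6580 of 15011 genes fell (43.8%) and 2726 rose (18.2%). Of the 3387 genes with at least 2-fold falls in MO, 3209 (94.7%) also fell in UIC, 0 rose there, and their median change was -1.50 in MO and -1.46 in UIC. Of the 1324 with at least 2-fold rises in MO, 1296 (97.9%) rose in UIC and 1 fell, with medians of 1.60 and 1.64. Genes chosen the other way round gave 3297 at least 2-fold falls in UIC with medians of -1.49 in UIC and -1.49 in MO, and 1442 rises with medians of 1.59 and 1.52. Across the 15011 genes the MO and UIC changes had a Pearson correlation of 0.959, as a description over genes that share libraries and are not independent.

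The difference between the MO change and the UIC change was tested with the time point as a block. No gene passed an adjusted p of 0.05 in limma in either direction (0% of 15011), and the smallest adjusted p was 0.382. At an unadjusted p under 0.05 there were 1582 genes (10.5%), 757 with a higher change in MO and 825 with a lower one. Without the block there were 0 genes at an adjusted p under 0.05, and 127 and 224 at an unadjusted p under 0.05. The median difference over all genes was 0.01 on the TPM scale. The balance between the directions depends on the scaling. With spike-in scaling, 161 genes had a higher change in MO and 1506 a lower one at an unadjusted p under 0.05. Median ratio scaling gave 772 and 795, and 0 genes passed adjustment under either scaling. A difference that misses the threshold does not show that the conditions were alike, and 264 genes had a difference of at least 1 in size. With 3 libraries per window, the genes below are those with the smallest p and are given as descriptions.

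*rab5c*, a GTPase of early endosomes, was at 16.0, 21.4 and 26.4 TPM early and 43.2, 41.0 and 45.0 TPM late in MO. In UIC it was at 21.3, 37.5 and 37.9 TPM and 19.6, 27.6 and 29.2 TPM, so that it rose in MO (1.01) while its UIC change was -0.30. The difference of 1.31 ± 0.17 had an unadjusted p of 0.000101 in the limma fit. *uap1*, which makes UDP-N-acetylglucosamine, went from 78.7, 72.2 and 80.9 TPM to 189.9, 196.3 and 235 TPM in MO and from 157, 125 and 114 TPM to 192, 216 and 228 TPM in UIC. MO started lower and reached a like level, and the difference was 0.72 ± 0.12. *gmfb* (0.55), *gpr137b* (0.53) and *tmem11* (0.55) fell in both conditions, less so in MO by these differences, *pde12* (0.56) had the higher change in MO, and *tbrg4* (0.42) and *wash1* (0.45) were not called within MO.

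Among genes with a lower change in MO, *irg1*, which makes itaconate, had the largest difference, -2.48 ± 0.42. This locus, 1 of 2 tested with the symbol, went from 0.26, 0.2 and 0.98 TPM to 28.4, 34.2 and 16.7 TPM in MO and from 0.17, 0.16 and 1.3 TPM to 104, 149 and 207.3 TPM in UIC, and the late values of the conditions did not overlap. The other locus is not reported here, so the difference is given for this locus only. *mmp15*, a membrane metalloproteinase, went from 32.0, 29.3 and 26.1 TPM to 8.79, 8.28 and 4.37 TPM in MO and from 32.3, 28.0 and 33.8 TPM to 21.6, 17.3 and 13.9 TPM in UIC, a difference of -1.11 ± 0.17 with the late values again apart. The histone chaperone genes *nasp* (-0.76) and *nap1l1* (-0.30), the Nodal coreceptor gene *tdgf1.3* (-0.48), the endosomal gene *stx7* (-0.70), *ccdc124* (-0.49) and the kinase gene *sgk1* (-0.36) were the others. In the early UIC libraries *nasp* was at 527, 556 and 260 TPM and *stx7* at 31.69, 34.03 and 18.25 TPM. Both were higher again in the next UIC library, at 396 and 24.7 TPM. The part of the low last early UIC library in these differences was not tested. For all 16 genes the unadjusted p was at most 0.0011, and none passed adjustment.

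**Figure D5:**
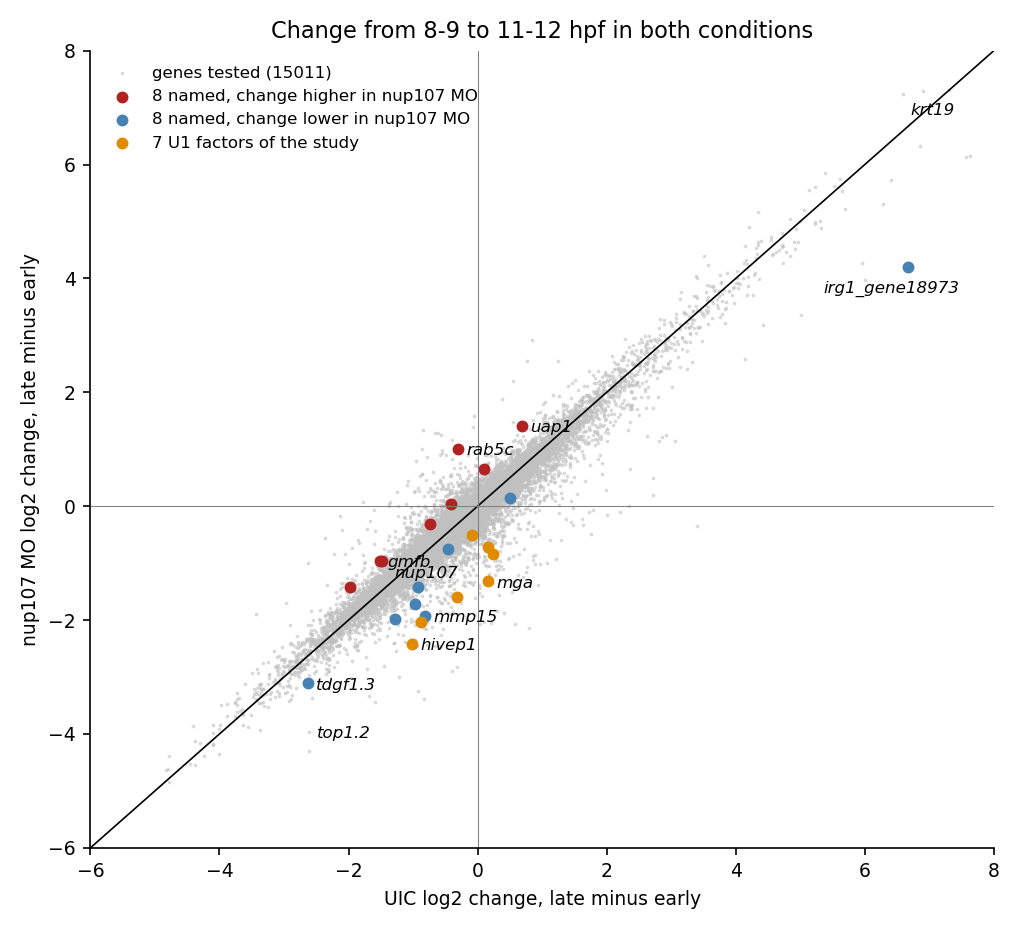
log2 change from 8 to 9 hpf to 11 to 12 hpf of each tested gene in UIC (x axis) and in MO (y axis), with the line of equal change. Red and blue points are the 8 genes with the smallest p of the difference in each direction, orange points are the 7 U1 factors, which lie below the line, and no gene passed an adjusted p of 0.05.

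The 7 transcription factors that the study drew from its cluster U1, maternal genes raised in MO, were chosen on these libraries, so their direction is not independent evidence. Of these, 6 fell in MO and *bbx* was not called, with a median of -1.32, while the median of the same genes in UIC was -0.09. Under spike-in scaling only 4 of the 7 fell (median -1.22), and under median ratios only 3 (median -0.90). *rest*, a repressor of neuronal genes, was at 24.7, 40.6 and 34.4 TPM early and 23.4, 13.9 and 22.4 TPM late in MO and at 13.8, 24.1 and 10.0 TPM and 13.8, 12.7 and 27.4 TPM in UIC. Its MO change of -0.72 ± 0.25 (SE, adjusted p = 0.035) no longer passed without the MO library of 8.5, 9 or 11.5 hpf (adjusted p = 0.12, 0.075 and 0.10) or under spike-in or median ratio scaling (0.070 and 0.52). The call for *znf462* was likewise lost without the MO library of 8.5 hpf (adjusted p = 0.10) or 11.5 hpf (0.057). *hivep1* went from 7.61, 13.5 and 8.81 TPM to 1.37, 0.6 and 1.13 TPM in MO and from 2.87, 4.92 and 1.61 TPM to 0.75, 0.56 and 1.63 TPM in UIC. All 7 factors were above UIC in each of the 3 early pairs of libraries, and 1 of 7 in each of the late pairs. Their levels shared some, but not all, movements between neighbouring libraries. All 7 were highest at 8.5 hpf among the early libraries of both conditions, lowest at 9 hpf among the early UIC libraries and lowest at 11.5 hpf among the late MO libraries. The difference between the MO and UIC changes ran from -0.42 for *bbx* to -1.48 for *mga*, with an unadjusted p under 0.05 for 6 of 7 and no adjusted p under 0.05. The part of these shared movements between libraries in the difference was not tested. *top1.2* (-1.35) and the pore basket gene *tpr* (-1.23) had the same early peak at 8.5 hpf in UIC and the same drop at 9 hpf, and the fall of *tpr* in MO did not pass without the MO library of 8.5 hpf (adjusted p = 0.054).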

How the data were processed

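The authors aligned 150 bp paired-end stranded reads to the X. tropicalis genome together with ERCC spike-in sequences by STAR and estimated levels by RSEM, and the deposited values are TPM per gene, with versions not given in the sources used here. TPM hold no read counts, so depth and counting intervals are not known and no count test was run. Tables named for polyA+ and rRNA-depleted libraries were identical and were used once, as polyA+. The rRNA-depleted samples were not analysed here. Results for some genes are not reported here.

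A gene was tested when UIC or MO exceeded 0.4 TPM at 6 time points in a row (15011 of 34192) after removal of 92 ERCC rows. log2(TPM + 1) of the 3 late and 3 early MO libraries was compared by limma 3.58.1 in R 4.3.3 (eBayes with trend, two-sided, Benjamini-Hochberg adjusted p under 0.05). The difference from UIC was fitted as an interaction over 12 libraries with the time point as a block, since embryos of both conditions were collected at the same times. Deviations of MO and UIC libraries of the same time had correlations of 0.088 to 0.568. The lowest were 0.088 at 8.5 hpf and 0.132 at 11.5 hpf. At 8.5 hpf a UIC library of another time matched the MO library better. The fit was tested on simulated data. It called 60 of 100 genes given a log2 change of 1 between the windows and 93 of 100 given 2. For the difference between conditions it called 26 of 100 at a log2 difference of 1 and 73 of 100 at 2, so that real differences can be missed. Of 14811 unchanged genes it called 11 between the windows and 7 between conditions. In the simulation 14811 of 15011 genes were unchanged, while in the data 7033 fell and 2910 rose between the windows. The adjustment depends on this share, so the simulated rates between the windows need not hold for the data. Figures were drawn with matplotlib 3.10.9.

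The members and gene lists were chosen with earlier results of these data known. Named were the 12 largest rises and falls among called genes with a symbol, windows that did not overlap and at least 5 TPM in the higher window, up to 6 called members with the largest change in each list, *nup107*, the Y complex, the U1 factors and the in situ genes, and the 8 genes per direction with the smallest interaction p, since none passed. Other list members were named as examples after their values were seen, among them *cpeb1*, *gdf1*, *krt8*, *sox2* and the *mcm* genes. Alternatives were a pseudocount of 0.1, no filter, a mean of at least 1 TPM, spike-in and median ratio scaling, no trend, time as a covariate, all 12 libraries in 1 fit, regression over 9 libraries, an adjusted p under 0.01, no block, and each library left out.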

Additional observations from a re-analysis of the deposited data

Results flagged for a closer look

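*hba1*, an alpha globin gene on the list of markers of differentiated tissues, fell in MO and had a positive change in UIC that was not called (0.29 ± 0.16 SE, limma adjusted p = 0.16), both at very low levels. It was at 1.06, 1.11 and 1.31 TPM in the early MO libraries and 0.56, 0.68 and 0.30 TPM in the late ones, and its means in UIC were 0.713 TPM early and 1.09 TPM late. The difference between the MO and UIC changes was -0.81 on the log2 scale. It had an unadjusted p of 0.0057 in limma and did not pass adjustment over all genes.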

How the results depend on the processing

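Counts of falling and rising genes stayed within 1.5 times under all alternatives but median ratio scaling, which gave 4179 falls and 5284 rises, 1842 MO genes falling at least 2-fold and 2438 MO genes rising at least 2-fold. Leaving out 1 library gave 5954 to 7053 falls and 2360 to 2965 rises. No gene passed for the difference between the MO and UIC changes except 1, a gene without a symbol, when the MO or the UIC library of 11 hpf was left out. Without the time point block 0 genes passed, with 127 higher and 224 lower at an unadjusted p under 0.05. Spike-in scaling gave 161 higher and 1506 lower, and 0 passed. Among the values of named genes under these alternatives, 3372 kept direction and side of the threshold, 59 lost their call, 9 gained one and 13 changed sign. Under spike-in scaling *nup98* was at 0.012 and *t* at 0.083. Under median ratios *tbrg4* was at 0.22, *nup43* at 0.17, *nup98* at 0.40, *t* at 0.48 and *chrd* at 0.32. Leaving out single MO libraries, which calls none of these, gave -0.0864 to 0.391 for the sgk1 log2 change in MO, -0.0147 to 0.0777 for the wash1 log2 change in MO and -0.227 to 0.124 for the t log2 change in MO. The causes were not tested. Depth is unknown, so precision rests on 3 libraries per window.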
